A study of Mus musculus with 6 samples.

Results

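The subject is 9 genes of the Hedgehog pathway in primary mouse muscle stem cells with and without a knockout of Med23, a subunit of the Mediator complex. The genes are Gli1, Gli2, Gli3, Ptch1, Smo, Sufu, Hhip, Kif7 and Gas1, taken by symbol, and all 9 had a row among the 32973 rows of the deposited expression table. Control cells (Ctrl, 3 libraries) had the genotype Med23flox/flox, and knockout cells (Med23KO, 3 libraries) the genotype Med23flox/flox::Pax7CreERT2, so that the loxP-flanked Med23 alleles were common to every library. The cells were sorted by flow cytometry from skeletal muscle and grown for 3 days on collagen in F10 medium that held serum and bFGF. The labels list no treatment and do not say how Cre was induced. CreERT2 was driven by Pax7, the gene that marks muscle stem cells, and no library carried Cre without the loxP-flanked alleles, so effects of Cre and of Med23 loss cannot be told apart. Whether libraries of a group came from separate animals is not stated. The p-values here set group differences against the spread between these libraries, and that spread may be technical. Expression is in FPKM, which are fragments scaled to transcript length and library size, and the depth of each library is unknown. Values given in threes are those of replicates 1, 2 and 3, in that order.

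Hedgehog signalling starts when a secreted ligand (Sonic, Indian or Desert hedgehog) binds the receptor Patched. Unbound Patched restrains Smoothened, a membrane protein that works in the primary cilium. Once Smoothened is released, the Gli transcription factors escape from Sufu and from cleavage into repressors and switch on targets that include Gli1, Ptch1 and Hhip themselves, so these 3 genes serve as common readouts of pathway activity. In skeletal muscle the pathway is known from embryonic induction of the myogenic program and from regeneration.

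Med23 itself had 10.4, 11.7 and 10.2 FPKM in controls and 5.10, 5.86 and 4.23 FPKM in knockouts, and differed by -0.96 on the log2 scale (SE 0.133, adjusted p = 0.0197 by limma). The knockout mean was 47.1% of control, so a large part of the transcript signal remained. Every knockout library was below every control library, while leaving out any 1 of 5 libraries (all but Med23KO replicate 3) took the adjusted p above 0.05, to at most 0.108. Fold changes here are differences of mean log2(FPKM + 1), knockout minus control, which understate the change of low genes. The test covered the 12336 genes whose mean reached 1 FPKM. Transcripts of the stem cell marker Pax7 (32.4 to 60.3 FPKM) and the myoblast regulator Myod1 (551 to 1170 FPKM) were present in all 6 libraries. Of the blood cell markers, Ptprc was at most 0.0896 FPKM, while Lyz2 ran from 9.40 to 35.0 FPKM and Cd68 from 1.30 to 2.37 FPKM. Of the tendon markers, Tnmd was at most 0.0727 FPKM, while Scx had 41.4, 47.5 and 33.6 FPKM in controls and 20.0, 25.0 and 22.4 FPKM in knockouts and fell (adjusted p = 0.0344 by limma). That call was lost on leaving out replicate 1 or replicate 2 of either group (adjusted p from 0.0963 to 0.149), without the filter on low values (0.0695), with the GC correction (0.0531) and by the authors' q-values (0.0873).

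No Hedgehog gene passed the test, which did not pair libraries by replicate number (with that number as a block, Gas1 and Gli3 passed). Of the 9 genes, 8 were tested and 0 were called at an adjusted p under 0.05 (limma), where 2.91% of all tested genes were called. At an unadjusted p under 0.05, 1 of the 8 was reached (Gli3), against 19.7% of all tested genes. The 3 knockout values lay on 1 side of the 3 control values in 1 of the 8, again Gli3, against 24.7% of all tested genes. A Cuffdiff q under 0.05 was given to 1 of the 8 in the authors' deposited table (Gas1, q = 0.000695), against 15.6% of all tested genes. The median log2 fold change of the 8 genes was -0.09, that of all tested genes -0.03, and 7 of the 8 were below 0, of which Gli2 and Ptch1 turned above it under median scaling. The libraries are of whole cultures, in which fewer cells of a type and less RNA per cell cannot be told apart.

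**Figure D1:**
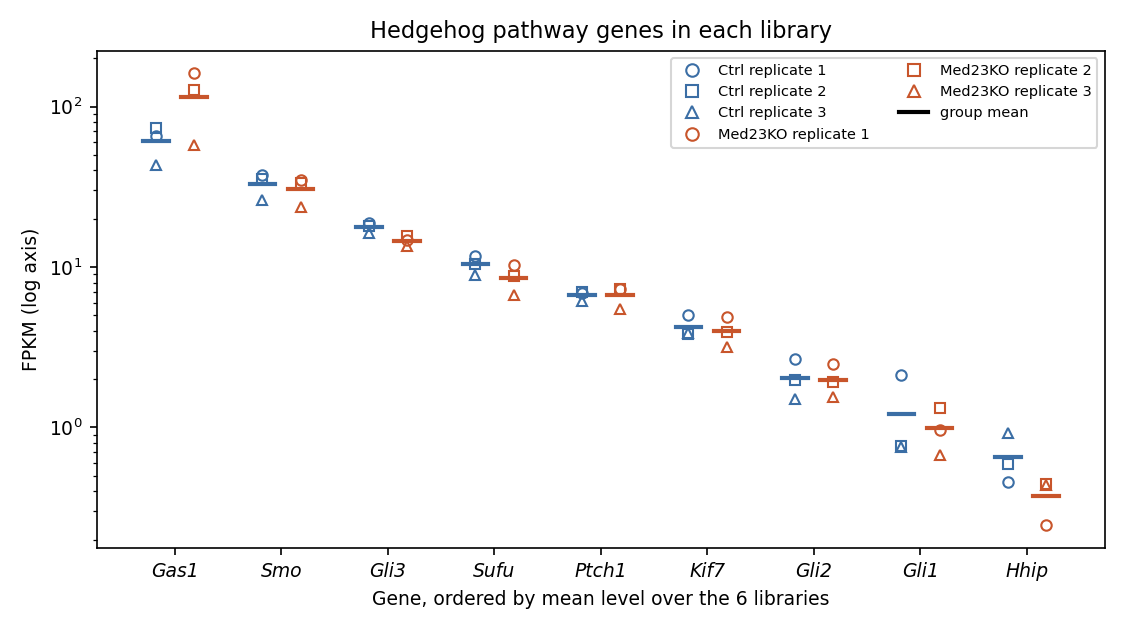
FPKM (log axis) of the 9 Hedgehog pathway genes in each library, with genes ordered by their mean over the 6 libraries. Symbols are single libraries, circles, squares and triangles standing for replicates 1, 2 and 3, and bars are group means (n = 3). Control and knockout points overlap for every gene except Gli3 and Hhip, and levels run from 161 FPKM (Gas1, Med23KO replicate 1) to 0.246 FPKM (Hhip, Med23KO replicate 1).

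The levels of the 9 genes spanned a wide range, and their order was stable. Mean FPKM over the 6 libraries was 88.2 for Gas1, 31.7 for Smo, 16.1 for Gli3, 9.49 for Sufu, 6.67 for Ptch1, 4.12 for Kif7, 2.01 for Gli2, 1.10 for Gli1 and 0.516 for Hhip. FPKM are scaled to length, so these levels can be set against each other, but only roughly. Values also varied with transcript GC content in most libraries, and the 9 genes ran from 41.2% GC (Hhip) to 59.6% GC (Kif7). Gas1 was above 93.9% of tested genes and Smo above 80.9%, while Gli1 was above 1.35% and Hhip was under the filter. Each gene was above the next in this order in 6 of 6 libraries, except that Gli1 was above Hhip in 5. The ranges over the libraries overlapped between Sufu and Ptch1, between Gli2 and Gli1 and between Gli1 and Hhip, so these neighbours are not separated beyond the spread between libraries.

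The promoters of Gas1 and Gli2 are shown because Gas1 had the largest difference of the 9 genes and Gli2 was the one gene whose upstream window held the core of a Gli binding site. They are the 250 bases before the RefSeq start on GRCm38.p6, each read 5′ to 3′ on the strand of its gene. The capitals, in the Gli2 window alone, mark the core ACCACCC, here on the other strand as GGGTGGT.
Gas1, chr13:60177536-60177785, minus strand: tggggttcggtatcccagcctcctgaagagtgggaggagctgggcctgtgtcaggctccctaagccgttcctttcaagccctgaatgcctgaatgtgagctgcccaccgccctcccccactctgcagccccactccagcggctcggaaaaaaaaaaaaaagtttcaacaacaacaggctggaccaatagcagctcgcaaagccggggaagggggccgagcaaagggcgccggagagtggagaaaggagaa
Gli2, chr1:119053620-119053869, minus strand: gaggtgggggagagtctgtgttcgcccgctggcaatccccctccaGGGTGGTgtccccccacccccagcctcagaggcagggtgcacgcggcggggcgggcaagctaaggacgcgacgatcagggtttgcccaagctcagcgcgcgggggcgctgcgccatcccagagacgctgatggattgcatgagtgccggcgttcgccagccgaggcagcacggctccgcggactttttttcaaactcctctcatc

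RefSeq windows were at hand for 8 of the 9 genes (not Gli1, which is therefore not analysed here). The Gli consensus GACCACCCA, searched on both strands, was in 0 of these 8 windows and in 0.225% of 32851 windows of the same length. Its inner 7 bases ACCACCC, which the longer motif contains, were in 1 of the 8, that of Gli2 at 205 bases before the start, and in 3.92% of all windows. These are letter matches in a short window. The Gas1 window ends 170 bases before the start of the GENCODE gene model, so the starts of the 2 annotations differ there. Counted the same way, the offset was -7863 bases for Ptch1 and -488 bases for Gli3, whose windows lay inside the gene model. For Ptch1 and Gli3 the bases before the GENCODE start were therefore not searched. The other offsets ran from -13 (Kif7) to 6 bases (Smo). GC content was 58.8% in the Gas1 window and 67.2% in that of Gli2, against a median of 52.4% over all windows.

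Ptch1, the receptor gene, had almost equal group means. Ptch1 encodes Patched 1, the ligand receptor and itself a Gli target (ENSMUSG00000021466.12, mm10 chromosome 13, positions 63508328 to 63573598, minus strand). It had 6.89, 7.01 and 6.12 FPKM in controls and 7.27, 7.24 and 5.47 FPKM in knockouts. The knockout values enclosed the control values. Its log2 fold change was -0.01 (95% interval -0.33 to 0.31, limma adjusted p = 0.983), so the spread leaves room for a change of that size in either direction.

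Hhip encodes a membrane protein that binds and sequesters the ligands, and it is also a Gli target (mm10 chromosome 8, positions 79965851 to 80058006, minus strand). It had 0.457, 0.596 and 0.917 FPKM in controls and 0.246, 0.445 and 0.437 FPKM in knockouts. Each knockout value was below each control value, but the nearest 2 differed little and all 6 were under 1 FPKM. With a mean of 0.516 FPKM it was not tested, and the authors' deposited table also marks it as not tested. By exact permutation (two-sided) p was 0.1, the floor for 3 against 3 libraries. Without the filter its log2 fold change was -0.26 (SE 0.122, adjusted p = 0.386 by limma).

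Gas1 encodes a GPI-anchored coreceptor that helps the ligand bind Patched and was named for its expression in growth-arrested fibroblasts. The gene lies on mm10 chromosome 13 at positions 60174405 to 60177365, minus strand (ENSMUSG00000052957.8). It had 65.9, 74.0 and 43.3 FPKM in controls and 161, 127 and 57.6 FPKM in knockouts. Med23KO replicates 1 and 2 were above every control, while Med23KO replicate 3 fell among the controls. The means were 61.0 ± 15.9 and 115 ± 52.8 FPKM (SD, n = 3), or 189% of control. The log2 fold change of 0.82 missed the threshold (SE 0.374, 95% interval -0.05 to 1.69, limma adjusted p = 0.284), and p was 0.3 by exact permutation (two-sided). Without Med23KO replicate 3 it was 1.25 and past the threshold (adjusted p = 0.0151), in a fit that called 6.07% of all tested genes higher, and the authors' deposited table also called Gas1. The fit without Med23KO replicate 3 kept Ctrl replicate 3. Deviations in Ctrl and Med23KO replicate 3 both ran against transcript GC content (Spearman's rho -0.60 and -0.55). Gas1 was GC-rich (58.4%), so the groups of that fit were not balanced for it. Over the fits without any 1 of the other libraries the log2 fold change of Gas1 ran from 0.52 to 0.97 (0.59 without Ctrl replicate 3), with adjusted p-values from 0.355 to 0.607.

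Fibro-adipogenic progenitors and fibroblasts are cell types that sorted preparations from muscle may carry along. Within the knockouts, the sum of their markers had the same order of libraries as Gas1. The same held for the sum over muscle stem cells and myoblasts (1896, 1645 and 1118 FPKM). It also held for pericytes and smooth muscle cells (21.6, 15.7 and 8.45 FPKM). In controls the order was not shared. There Gas1 was highest in replicate 2 (74.0 FPKM), and all of these sums were highest in replicate 1 (229, 1997 and 26.4 FPKM). The sums were weighted to their most abundant genes. In knockouts Col3a1 had 286, 256 and 183 FPKM, Myod1 964, 845 and 551 FPKM and Notch3 16.5, 11.8 and 3.77 FPKM. Not every marker had this order, since Pdgfra had 3.78, 2.41 and 2.66 FPKM and Rgs5 0.782, 1.19 and 1.16 FPKM. The 12 fibroblast-type markers summed to 229, 203 and 167 FPKM in controls and to 360, 304 and 224 FPKM in knockouts. Of the 10 tested, 0 were called in either direction and the median log2 fold change was 0.48. Pdgfra was between 1.28 and 3.78 FPKM, Col3a1 between 138 and 286 FPKM, and Pi16 was at 0 in 4 libraries and at most 0.0352 FPKM. The 12 markers of differentiating muscle cells summed to between 97.3 and 162 FPKM in controls and to between 284 and 319 FPKM in knockouts, with 4 of 10 tested called higher, against 1.49% of all tested genes. Among those called, Gm7325 had means of 0.363 FPKM in controls and 2.15 FPKM in knockouts, so it passed the filter only through its knockout values. The part of fibroblast-type or differentiating cells in the Gas1 values was not tested.

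Of the other receptors and coreceptors, 3 were tested (Cdon, Boc and Gpc3) and 0 were called, with a median log2 fold change of 0.24. Cdon, a cell surface protein of the immunoglobulin family that binds Hedgehog ligands and also promotes myoblast differentiation, was the most abundant of the 3. It had 211, 230 and 211 FPKM in controls and 276, 271 and 224 FPKM in knockouts. Again Med23KO replicate 3 fell among the controls, and the log2 fold change of 0.24 did not pass (adjusted p = 0.281 by limma). Boc, the relative of Cdon, had 7.43 ± 0.970 and 7.48 ± 1.30 FPKM (SD, n = 3). Of the summed FPKM of Cdon, Boc and Gas1, Gas1 made up 23.2%, 23.7% and 16.6% in controls and 36.1%, 31.4% and 20.0% in knockouts. The lowest knockout share was within the control range. Gpc3, a glypican that competes for ligand, had 0.700 ± 0.264 and 1.33 ± 0.758 FPKM (SD, n = 3). Its control mean was under the filter, so Gpc3 was tested only through its knockout values.

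Smo encodes Smoothened, the signal transducer (ENSMUSG00000001761.7), and its gene spans mm10 chromosome 6 from 29735503 to 29761365 on the plus strand. Smo had 37.3, 35.5 and 26.0 FPKM in controls and 34.9, 33.3 and 23.6 FPKM in knockouts. Replicate 3 was the lowest library of each group, and the difference between replicates of a group was larger than that between the groups. Smo had a log2 fold change of -0.11 (95% interval -0.55 to 0.33, limma adjusted p = 0.819), and without Med23KO replicate 3 it was 0.06.

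Sufu encodes the cytoplasmic inhibitor that holds Gli proteins (ENSMUSG00000025231.17), and its gene spans mm10 chromosome 19 from 46396896 to 46488804 on the plus strand. Sufu had 11.8, 10.5 and 8.87 FPKM in controls and 10.3, 8.81 and 6.68 FPKM in knockouts. The groups overlapped, and the means of 10.4 ± 1.46 and 8.59 ± 1.80 FPKM (SD, n = 3) gave a log2 fold change of -0.26 (SE 0.170, 95% interval -0.65 to 0.14, limma adjusted p = 0.467). Its sign was the same in each of the 17 alternative settings, and it was called in 0 of them.

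Kif7, a kinesin of the cilium tip that regulates Gli processing, lies on mm10 chromosome 7 at positions 79698098 to 79715720, minus strand. It had 5.02, 3.82 and 3.90 FPKM in controls and 4.87, 3.94 and 3.15 FPKM in knockouts (log2 fold change -0.08, 95% interval -0.47 to 0.31, limma adjusted p = 0.852). The control range covered all but Med23KO replicate 3. Kif7 overlaps the protein-coding gene Ticrr on the opposite strand, and Gli1 overlaps Arhgap9 likewise. The other members except Sufu overlap noncoding annotations. Since the sources used here do not say whether fragments were assigned by strand, the values of these genes are uncertain to that extent. For Gli3, Ptch1 and Smo an overlapping annotation lies on the same strand, which assignment by strand would not separate.

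Gli3 made up most of the Gli family transcript in every library, between 79.7% and 87.8% of the summed FPKM of the 3 genes. Gli3 is the factor most often processed to a repressor, and lies on mm10 chromosome 13 at positions 15463235 to 15730026, plus strand (ENSMUSG00000021318.15). It had 18.8, 17.9 and 16.3 FPKM in controls and 14.7, 15.6 and 13.6 FPKM in knockouts. Every knockout value was below every control value, by a margin between the nearest libraries (15.6 and 16.3 FPKM) that was smaller than the spread within a group. The means were 17.7 ± 1.24 and 14.6 ± 0.989 FPKM (SD, n = 3), or 82.8% of control. Gli3 had a log2 fold change of -0.26 (SE 0.104, 95% interval -0.50 to -0.01), with an unadjusted p of 0.0409 that did not hold over all genes tested (limma adjusted p = 0.231). By exact permutation p was 0.1, again the floor, and the authors' deposited table did not call Gli3 (q = 0.101). Leaving out 1 library moved the log2 fold change between -0.31 and -0.21, with adjusted p-values from 0.286 to 0.495.

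Gli3 had the smallest adjusted p of the 9 genes, and genes with the most similar profile were sought for it alone. Likeness was the root mean square difference of log2(FPKM + 1), centred on each gene's mean over the 6 libraries, among 8821 genes whose mean reached 5 FPKM. The 5 nearest were the kinase gene Wnk1 (0.0148), the disulfide isomerase gene Txndc5 (0.0252), the histone gene Hist1h2bm (0.0262), the translation initiation factor gene Eif3l (0.0272) and the RNA-binding protein gene Larp1 (0.0300). Their log2 fold changes lay between -0.29 and -0.23, and 0 of the 5 passed the test.

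Gli2, the main activator of the family, lies on mm10 chromosome 1 at positions 118834132 to 119053619, minus strand. It had 2.66, 1.96 and 1.50 FPKM in controls and 2.50, 1.91 and 1.54 FPKM in knockouts. The libraries of the same number were close to each other and the groups covered almost the same range. Gli2 had a log2 fold change of -0.02 (95% interval -0.47 to 0.43, limma adjusted p = 0.970).

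Gli1, an activator whose transcription depends on the pathway, lies on mm10 chromosome 10 at positions 127329882 to 127341974, minus strand. It had 2.13, 0.770 and 0.759 FPKM in controls and 0.960, 1.33 and 0.673 FPKM in knockouts. Ctrl replicate 1 stood above the other 5 libraries, which overlapped. Gli1 had a log2 fold change of -0.12 (95% interval -0.73 to 0.49, limma adjusted p = 0.863), and without Ctrl replicate 1 it was 0.16 (adjusted p = 0.732). Among the 3 readout genes Gli1, Ptch1 and Hhip, 0 were called, and 2 of them lie at about 1 FPKM or less, where a difference is hard to detect.

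**Figure D2:**
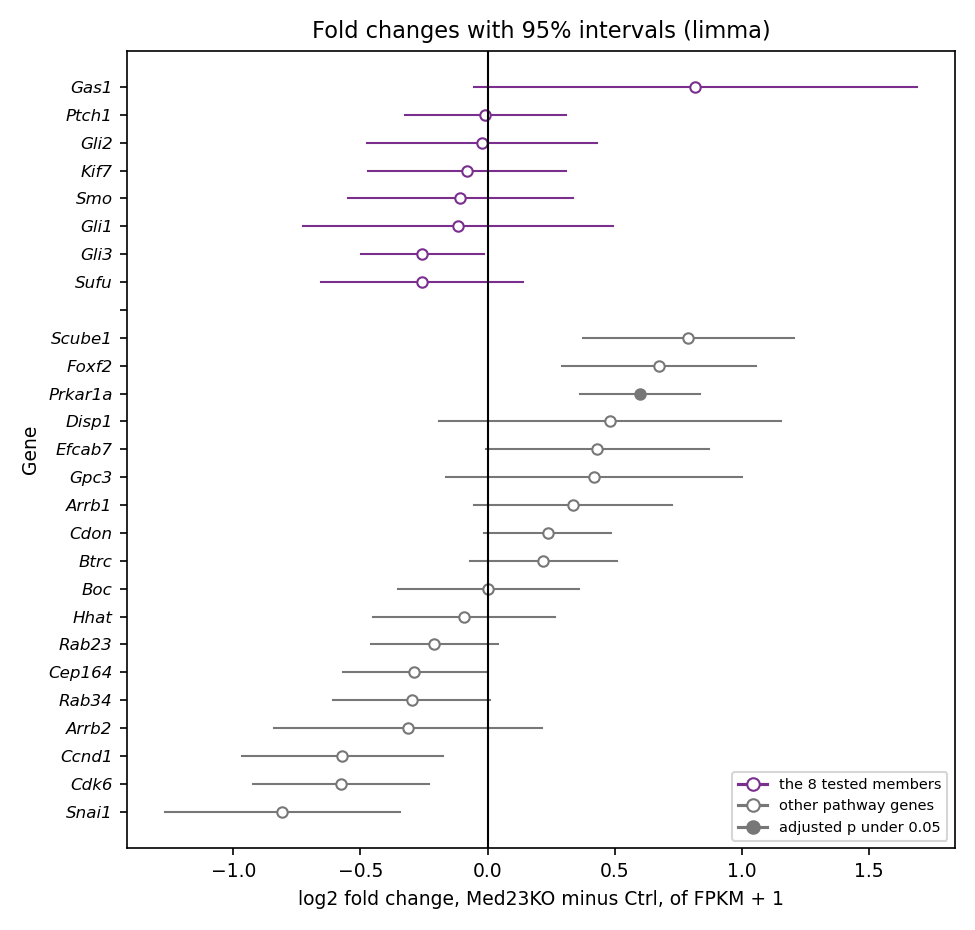
Log2 fold change (Med23KO minus Ctrl, of FPKM + 1) with its 95% interval from limma for the 8 tested Hedgehog genes (purple) and for the other tested pathway genes that the naming rule picks (grey). Filled points have an adjusted p under 0.05, which holds for Prkar1a alone (0.60). Gas1 has the widest interval of the 8, from -0.05 to 1.69.

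Libraries differed from each other in a way that the groups do not explain, and most of the 9 genes took part in it. Replicate 3 was the lowest library of both groups in 7 of the 8 tested genes (all but Kif7), against 39.7% of all tested genes. Deviations from the group mean followed the GC content of transcripts. Across 11955 genes, which are not independent replicates, Spearman's rho was 0.50, 0.15 and -0.60 in controls and 0.58, 0.20 and -0.55 in knockouts. GC content of the longest transcript was above that of 82.7% of tested genes or more for Gli1, Gli2, Smo, Sufu, Kif7 and Gas1 (55.8% to 59.6% GC). It was near the median of 48.9% for Gli3 (48.4%) and Ptch1 (47.8%) and low for Hhip (41.2%), which alone of the 9 was highest in Ctrl replicate 3.

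**Figure D3:**
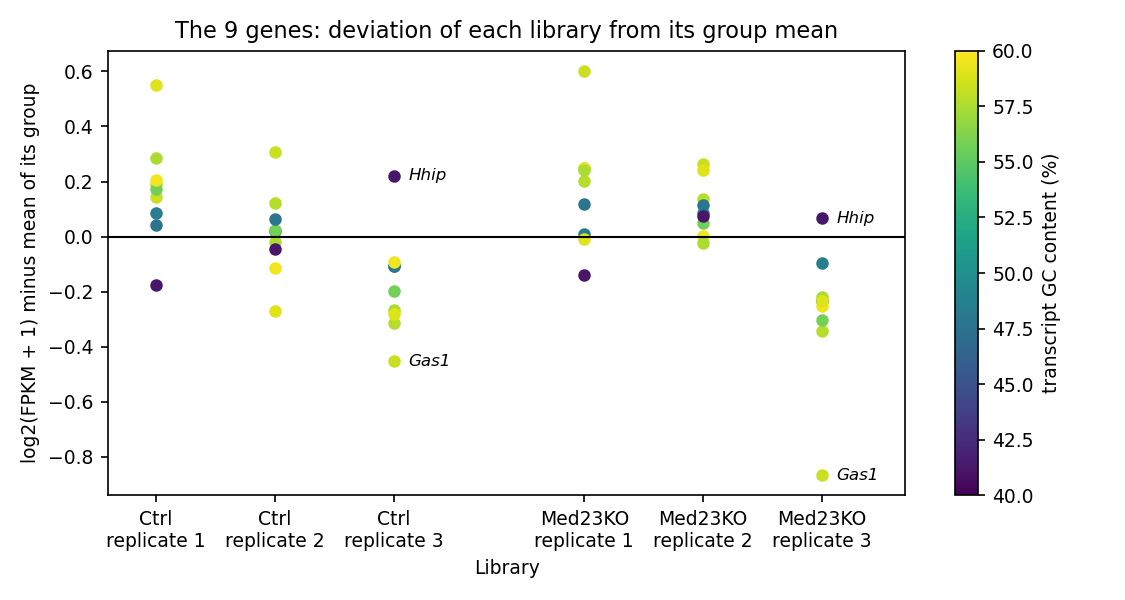
Deviation of each library from the mean of its group in log2(FPKM + 1), for the 9 genes, coloured by the GC content of the longest transcript. In replicate 3 of each group 8 genes lie below 0 and Hhip, with 41.2% GC the lowest of the 9, lies above it.

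With a trend on GC content taken off each library, a setting chosen after these values were seen, 0 of the 8 genes were called. Gas1 had a log2 fold change of 0.86 (limma adjusted p = 0.0741), Sufu -0.22 (adjusted p = 0.134) and Gli3 -0.22 (adjusted p = 0.121). The remaining 5 lay between -0.07 and 0.03.

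The ligands were at or near the limit of the data. Shh was listed at 0 in all 6 libraries, Ihh was between 0 and 0.170 FPKM and Dhh between 0.0741 and 0.298 FPKM, so none was tested. Of the other genes for making and releasing ligand, 3 of 6 were tested and 0 were called. Scube1, a secreted relative of the ligand-releasing protein Scube2, had 0.212, 0.725 and 0.494 FPKM in controls and 1.66, 1.58 and 1.36 FPKM in knockouts. The groups did not overlap, and the log2 fold change of 0.79 missed the threshold (adjusted p = 0.0641 by limma). Its control mean of 0.477 FPKM was under the filter, and its mean over the 6 libraries was 1.00 FPKM. Scube1 was therefore tested only because its knockout values were high, and these results describe it without testing a rise. Disp1, which exports ligand from the cell, had 4.95 ± 1.07 and 7.66 ± 3.14 FPKM (SD, n = 3), and its knockout values of 10.4, 8.36 and 4.22 FPKM again had replicate 3 within the control range. The acyltransferase gene Hhat had 2.99 ± 0.306 and 2.76 ± 0.568 FPKM.

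Of the regulators of Smo, Sufu and Gli proteins, 1 of 17 tested rose and 0 fell, against 2.91% of all tested genes called, with a median log2 fold change of 0.06. The gene that rose was Prkar1a, the type I-alpha regulatory subunit of protein kinase A, a kinase that promotes Gli repressor formation. It had 270, 315 and 292 FPKM in controls and 475, 448 and 406 FPKM in knockouts. The groups were well apart, and the log2 fold change was 0.60 with an SE of 0.101 (adjusted p = 0.0297 by limma). It stayed between 0.54 and 0.69 in every alternative, but the adjusted p rose to between 0.0820 and 0.162 without any 1 of 5 libraries (all but Med23KO replicate 3, where it was 0.0112) and to 0.0623 without the filter on low values. Protein kinase A serves many pathways other than Hedgehog, and its activity was not measured. More transcript of a regulatory subunit does not say whether that activity, or Gli repressor formation, was higher or lower. The ubiquitin ligase gene Btrc and the arrestin genes Arrb1 and Arrb2, which act on Gli proteins and Smoothened, had log2 fold changes of 0.22, 0.34 and -0.31 and did not pass.

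Genes of the primary cilium were balanced. Of 36 tested, 0 were called, 18 were above 0 and 18 below, and the median log2 fold change was 0.00. The groups did not overlap in 6, which is 16.7% against the 24.7% of all tested genes. The 4 smallest adjusted p-values belonged to the centriole gene Cep164 (0.243), Efcab7 (0.258), which helps anchor the Evc complex, Rab34 (0.269) and Rab23 (0.343), which encode small GTPases. Rab34, which acts in cilium formation, had 61.1 ± 4.35 and 49.8 ± 7.70 FPKM (SD, n = 3).

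Of 19 genes reported as Gli targets in other tissues, 11 were tested and 0 were called, with a median log2 fold change of -0.15, 3 above 0 and 8 below. The 4 with the smallest adjusted p-values went in opposite directions. The forkhead gene Foxf2 had 5.71, 8.34 and 5.95 FPKM in controls and 12.7, 11.1 and 9.65 FPKM in knockouts (log2 fold change 0.68, limma adjusted p = 0.0751). The repressor gene Snai1 had 31.0, 34.8 and 22.8 FPKM in controls and 20.0, 16.3 and 13.0 FPKM in knockouts (log2 fold change -0.81, adjusted p = 0.0772). The cell cycle kinase gene Cdk6 (-0.58, adjusted p = 0.0860) and the cyclin D1 gene Ccnd1 (-0.57, adjusted p = 0.124) were also lower in all 3 knockouts than in any control. These 4 genes respond to many signals. The authors' deposited table called 6 of the 11, these 4 among them (54.5%, against 15.6% of all tested genes). Among the 11, the groups did not overlap in 6 (54.5%, against 24.7% of all tested genes) and 5 had an unadjusted p under 0.05 (45.5%, against 19.7%). The list was chosen with earlier results of these data known, so these shares are no test of a response of Gli targets.

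Without Med23KO replicate 3, 5 of the 70 tested pathway genes other than the members were called higher, beside the 6.07% of all tested genes: Prkar1a, Foxf2, Scube1, Disp1 and Bmp4, the last a signalling ligand gene named here after its value was seen. Scube1 was in this count only because its high knockout values took it past the filter. The fit kept Ctrl replicate 3, so its groups were not balanced in the GC pattern described above.

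Over all 87 other pathway genes, 70 were tested, 1 was called higher (Prkar1a) and 0 lower, against 2.91% of all tested genes. The median log2 fold change of the 70 was 0.01, beside -0.03 for all tested genes. At an unadjusted p under 0.05 there were 8, or 11.4%, against 19.7%, and the authors' deposited table called 11, or 15.7%, against 15.6%.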

How the data were processed

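RNA of 6 libraries was analysed, 3 Ctrl and 3 Med23KO, grouped by their titles. Libraries were strand-specific and made from TRIzol-extracted, poly(A)-selected RNA, per the labels' protocols. FastQC, cutadapt, STAR and Cuffdiff were run by the authors on mm10, per the submitters' processing notes. For versions, annotation and strand setting, the entry is "not given in the sources used here". The authors deposited FPKM per library and per group, with Cuffdiff p-values, q-values and a test statistic (a score), per the file headers. Of these, the q-values were used as the authors' calls.

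Of 12368 rows named by Ensembl identifier alone, 12316 were given symbols from GENCODE vM21. Values were tested as log2(FPKM + 1) for genes whose mean reached 1 FPKM, in 1 fit over all of them, with limma 3.58.1 (R 4.3.3), with a mean-variance trend, genotype as the single factor, two-sided, Benjamini-Hochberg adjusted, threshold 0.05. The fit was tested on simulated data. No count model was run, since FPKM hold no counts, depth is unknown, and precision comes from replicate spread alone. The members and lists were chosen with earlier results of these data known. Named were all 9 members, Med23, called pathway genes, up to 4 per list with the smallest adjusted p, Cdon, Boc, the ligands and the 5 genes most like the member of smallest adjusted p, and 1 gene that is not reported here. The marker genes named were chosen after their values were seen. Alternatives covered pseudocount, filter, scaling, variance model, library weights, a replicate block, each library left out, the authors' q-values and, added later, a GC correction (lowess, span 0.3).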

Additional observations from a re-analysis of the deposited data

How the results depend on the processing

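Of the 8 tested Hedgehog genes, 0 were called in either direction under pseudocounts of 0.1 or 0.5, no filter, a mean of at least 5 FPKM (5 of the 8 tested), quantile normalization, median scaling, no trend, library weights (whose estimate stopped before convergence) and the GC correction. With the replicate number as a block, Gas1 was called higher (1 gene, adjusted p = 0.0134) and Gli3 lower (1 gene, adjusted p = 0.0403), while calls over all genes went from 184 and 175 (higher and lower) to 1180 and 1577 and those of other pathway genes to 6 and 6. The labels do not say that numbers pair libraries, so the block was not used. The deviations of same-numbered libraries correlated at 0.44, -0.02 and 0.56, and those of libraries of unlike number at -0.57 to 0.34. These correlations do not decide whether libraries were paired, so the main result is that of an unpaired fit. With 1 library left out, between 0 and 1 of the 8 were higher and 0 lower. The authors' q-values called 1 higher.

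Calls over all genes, higher and lower, were 73 and 84 without a filter, 850 and 850 with library weights, 538 and 336 with the GC correction and 1029 and 897 by the authors' q-values. Rises numbered 298 under quantile normalization and 363 under median scaling, where they made up 63.9% of calls against 51.3% as deposited. With 1 library left out, rises ran from 3 (without Med23KO replicate 2) to 749 (without Med23KO replicate 3) and falls from 10 to 395. Other pathway genes called higher were 0 without a filter, 2 under quantile normalization, no trend, library weights and the GC correction, 3 under median scaling, 7 by the authors' q-values, and 0 to 5 with 1 library left out. Those called lower were 2 under median scaling, library weights and the GC correction, 4 by the authors' q-values, and 0 with 1 library left out.

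Among the 8 genes, Gas1, Gli3 and Sufu kept their sign in all 17 alternatives. The sign turned for Gli1 with library weights (0.10), for Gli2 with median scaling (0.0027), library weights (0.0773) and the GC correction (0.0171), for Ptch1 with median scaling (0.0157) and the GC correction (0.0263), for Kif7 with library weights (0.0938) and for Boc with library weights (-0.0303). With 1 library left out, log2 fold changes ran from -0.26 to 0.16 for Gli1, -0.15 to 0.12 for Gli2, -0.0693 to 0.11 for Ptch1, -0.26 to 0.0640 for Smo, -0.20 to 0.0452 for Kif7, -0.10 to 0.12 for Boc and -0.20 to 0.0191 for Hhat. The causes were not tested. The depth of the libraries is unknown, so how far it limits Gli1, Hhip and the ligands cannot be stated.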
